A study of Mus musculus with 9 samples.

Results

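The genes described here were 10 immediate early and AP-1 genes of the mouse iris, namely the FOS family (*Fos*, *Fosb*, *Fosl1* and *Fosl2*), the JUN family (*Jun*, *Junb* and *Jund*), and *Atf3*, *Egr1* and *Ier2*. They were taken by gene symbol from the 18349 genes listed, and all 10 were listed and passed the filter on low counts, which left 15010 genes. Iris RNA was sequenced in 9 libraries, 3 in each of 3 groups, and RNA from 3 irises was pooled for each library. In the 2 injured groups the cornea was exposed to 0.5 µL of 1 M sodium hydroxide for 60 seconds at 6 weeks of age (corneal alkali injury), and Sham *VEGFR3fl/fl* mice received PBS instead. Injured *VEGFR3iLECko* mice carried floxed *VEGFR3* and the tamoxifen-inducible Cre *Prox1-CreERT2*, and the other 2 groups, Sham and injured *VEGFR3fl/fl*, were littermates with floxed *VEGFR3*. By the labels, Tamoxifen was injected at 80 mg/kg on days 13 to 17, with no group set apart, and irises were taken at 10 weeks, 28 days after injury. Cre was driven by *Prox1*, a gene of lymphatic endothelium, whereas RNA came from the whole iris. *Flt4*, which encodes VEGFR3, stood at 20.1 ± 3.11 CPM (normalized counts per 1e+06 counts; SD, n = 3) in injured *VEGFR3fl/fl* and 25.4 ± 3.88 CPM in injured *VEGFR3iLECko* libraries, so the genotype of the latter rests on its label.

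Immediate early genes are transcribed within minutes of a stimulus, from factors already present in the cell and without new protein synthesis. FOS proteins pair with JUN proteins to form the transcription factor AP-1, which binds the TPA response element (TRE) and, with ATF proteins, the cyclic AMP response element (CRE). FOS genes are switched on largely through the serum response factor and the MAP kinase cascade, JUN through the JNK branch, and the resulting AP-1 drives proteases, cytokines and growth factors in wounded and inflamed tissue. The same genes respond to tissue dissection, so their level in an excised tissue can reflect both the state of the animal and the minutes before lysis.

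Total counts per library ranged from 16617187 to 18306359. The libraries carried the markers of iris: the regulator *Pax6* was at 755 ± 21.03 CPM in Sham, 213 ± 16.7 CPM in injured *VEGFR3fl/fl* and 307 ± 29.2 CPM in injured *VEGFR3iLECko* libraries (SD, n = 3), and 8 pigment cell genes led by *Dct* and *Pmel* summed to between 27800 and 29800 CPM in Sham and between 3410 and 7170 CPM in injured libraries. Macrophage genes were between 443 and 463 CPM in Sham, between 12100 and 20700 CPM in injured *VEGFR3fl/fl* and between 7940 and 9790 CPM in injured *VEGFR3iLECko* libraries, neutrophil genes at most 6.14 CPM in Sham and at least 169 CPM in injured libraries, and smooth muscle genes at least 7270 CPM in Sham and at most 3700 CPM in injured libraries. These lists therefore moved with the groups, and in RNA of a whole tissue fewer cells of a type and less RNA per cell cannot be told apart. Summed expression of 4 Y-linked genes was between 51.1 and 167 CPM in 5 libraries and at most 1.11 CPM in injured *VEGFR3fl/fl* replicate 3 and all 3 injured *VEGFR3iLECko* libraries. The part of cell composition in the results below was not tested. That of sex was not tested beyond a fit with Y-linked expression as a covariate. Among injured libraries this covariate followed genotype except in injured *VEGFR3fl/fl* replicate 3. Corneal epithelial genes summed to at most 36.5 CPM. The rod photoreceptor gene *Sag* was uneven within every group, at 49.3, 5.31 and 15.9 CPM in Sham, 3.03, 51.9 and 1.55 CPM in injured *VEGFR3fl/fl* and 44.5, 1.81 and 31.2 CPM in injured *VEGFR3iLECko* libraries, and lens genes summed to at most 3.39 CPM in Sham and to between 8.98 and 43.9 CPM in injured libraries. The pools of a group came from different mice, so p-values measure the spread between pools.

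The start regions of *Fos*, *Fosb*, *Junb* and *Atf3* are shown because, of the members with a window, these 4 held TGACG, the core of the CRE. They were upregulated after injury, and so was *Fosl2*, whose window held no TGACG. A link between these letters and expression was not tested. RefSeq windows (GRCm38.p6, from 250 bases before to 50 bases after the annotated start) were at hand for 7 members, these 4 and *Fosl2*, *Jun* and *Jund*. Capitals mark TGACG on either strand, which reads CGTCA on the other strand, and the TATA motif TATAAA on the strand of the gene.
*Fos* (chr12:85473640-85473939, plus strand): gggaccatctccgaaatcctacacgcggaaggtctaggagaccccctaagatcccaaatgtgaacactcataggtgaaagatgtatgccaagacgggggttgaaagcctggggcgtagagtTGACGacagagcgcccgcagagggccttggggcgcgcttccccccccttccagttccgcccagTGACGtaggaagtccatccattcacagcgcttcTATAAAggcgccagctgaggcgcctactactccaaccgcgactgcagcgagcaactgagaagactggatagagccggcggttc
*Fosb* (chr7:19309996-19310295, minus strand): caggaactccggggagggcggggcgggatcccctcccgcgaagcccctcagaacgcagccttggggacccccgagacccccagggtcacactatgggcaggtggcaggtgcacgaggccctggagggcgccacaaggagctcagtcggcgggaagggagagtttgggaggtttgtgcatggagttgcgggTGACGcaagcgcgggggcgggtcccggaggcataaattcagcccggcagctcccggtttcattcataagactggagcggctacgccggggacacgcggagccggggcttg
*Junb* (chr8:84978699-84978998, minus strand): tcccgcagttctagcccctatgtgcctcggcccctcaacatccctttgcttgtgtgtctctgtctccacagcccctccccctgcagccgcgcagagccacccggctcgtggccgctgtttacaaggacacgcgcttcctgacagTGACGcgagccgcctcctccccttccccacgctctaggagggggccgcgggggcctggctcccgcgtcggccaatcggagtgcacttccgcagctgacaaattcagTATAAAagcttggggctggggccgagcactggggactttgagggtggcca
*Atf3* (chr1:191183284-191183583, minus strand): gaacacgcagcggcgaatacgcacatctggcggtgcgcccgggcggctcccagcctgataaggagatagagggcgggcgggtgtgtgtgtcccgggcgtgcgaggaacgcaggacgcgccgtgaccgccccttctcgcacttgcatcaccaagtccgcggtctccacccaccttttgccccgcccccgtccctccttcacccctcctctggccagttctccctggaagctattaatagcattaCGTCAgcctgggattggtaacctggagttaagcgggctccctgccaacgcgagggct
*Fos* held TGACG at positions -129 and -66 from the start and TATAAA at -33. *Fosb* held TGACG at -60, *Junb* at -106 with TATAAA at 1, and *Atf3* at -7. Of 32851 windows of the same length, 20.8% held TGACG on either strand and 8.32% held TATAAA on the strand of the gene. The full CRE (TGACGTCA, 1.79% of all windows, which overlaps TGACG), the TRE (TGAGTCA, 5.2%), the EGR site (GCGTGGGCG, 0.61%) and the CArG box of the serum response factor (1.63%), all searched on both strands, matched in 0 of the 7 windows, which says only that these letters were not in these windows. Between 46.7% (*Jund*) and 68.3% (*Fosb*) of the bases were G or C, against a median of 52.7% over all windows.

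The first comparison asked which of these genes differed in the iris 28 days after corneal alkali injury. *Fos*, *Fosb*, *Fosl1*, *Fosl2*, *Junb* and *Atf3* were upregulated in injured *VEGFR3fl/fl* relative to Sham *VEGFR3fl/fl* irises, by 2.60-fold to 13.0-fold, whereas *Jun* and *Jund* differed by at most 1.15-fold. All 15010 genes were tested by the quasi-likelihood method of edgeR, p-values were adjusted by Benjamini-Hochberg, and a differentially expressed gene (DEG) had to change more than 1.5-fold with its adjusted p below 0.05. By this rule 6 of 10 members were upregulated and 0 were downregulated, where 22.1% of all genes tested were upregulated and 17.5% downregulated. DESeq2 likewise called 0 members downregulated, and 0 were lower at an unadjusted p under 0.05. The groups did not overlap in 6 members, against 66.3% of all genes, so the members were not apart from the background in this respect. The median change was 1.52 on the log2 scale over the 10 members and 0.01 over all genes tested.

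**Figure D1:**
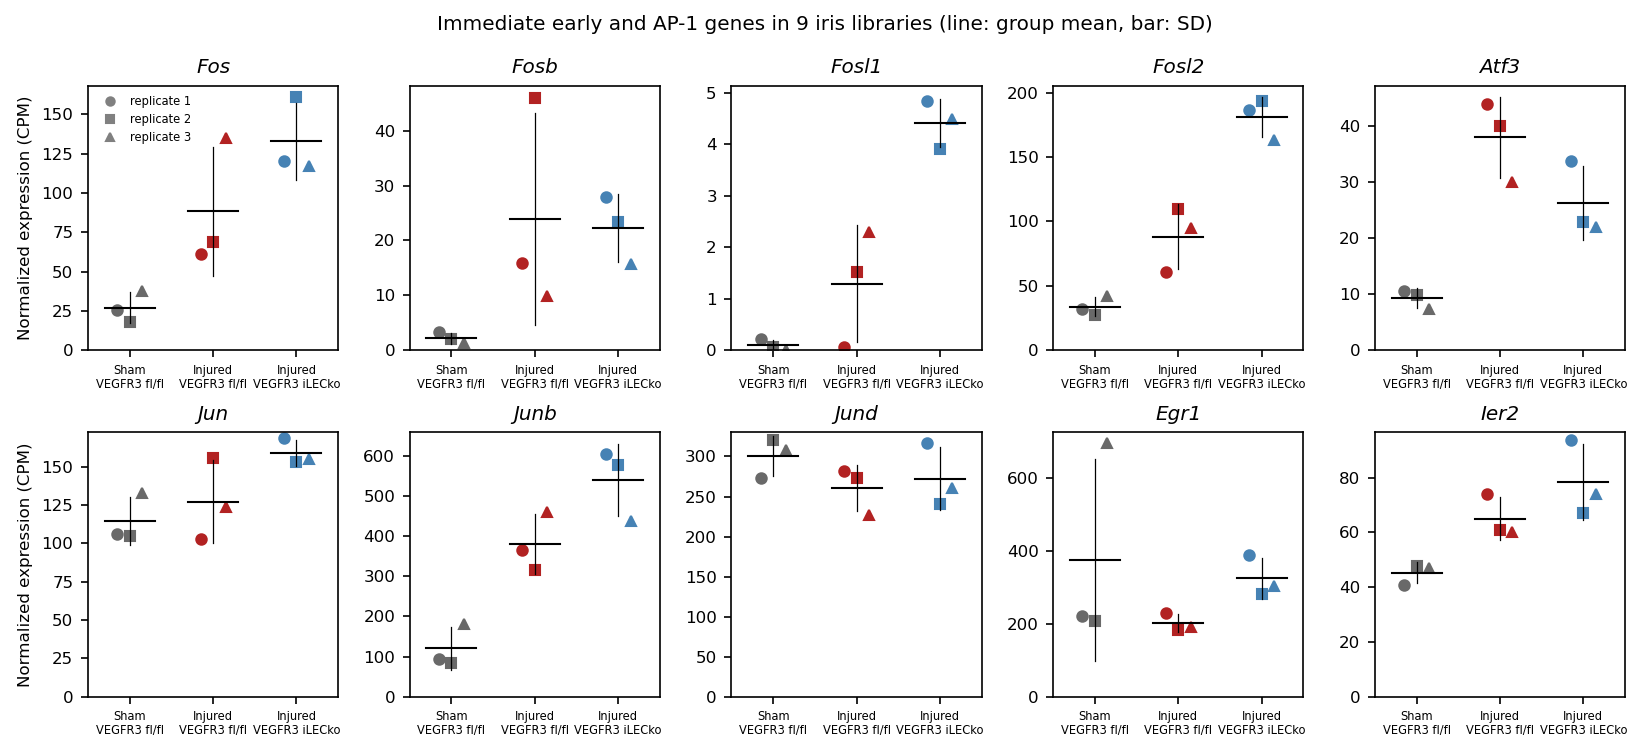
Normalized expression (CPM, vertical axes, each starting at 0) of the 10 members in 9 iris libraries, with 1 point per pooled library, symbols for replicate numbers, horizontal lines for group means and vertical bars for 1 SD (n = 3). *Fos*, *Fosb*, *Fosl2*, *Junb*, *Atf3* and *Ier2* showed no overlap between Sham and injured *VEGFR3fl/fl* libraries, and Sham replicate 3 stood alone for *Egr1* at 695 CPM.

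*Fos* (chromosome 12, 85473890-85477274), the founding member of its family, was at 25.3, 18.1 and 37.7 CPM in the Sham libraries, at 60.9, 68.6 and 135 CPM in injured *VEGFR3fl/fl* and at 120.3, 161 and 117 CPM in injured *VEGFR3iLECko*. Both injured groups thus lay above all Sham libraries, and the injured *VEGFR3fl/fl* group was spread, with replicate 3 above 2 of the injured *VEGFR3iLECko* libraries. The change after injury was 1.71 ± 0.35 on the log2 scale (SE, n = 3 and 3, edgeR adjusted p = 0.00222).

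*Fosb* (chromosome 7, 19302696-19310118), whose product also forms AP-1 with JUN proteins and whose truncated form builds up on repeated stimulation, was nearly silent in the Sham iris at 3.27, 2.03 and 1.30 CPM. It was at 15.9, 45.9 and 9.93 CPM in injured *VEGFR3fl/fl* and at 28, 23.3 and 15.7 CPM in injured *VEGFR3iLECko* libraries. Every injured library exceeded every Sham library, and the highest value came from injured *VEGFR3fl/fl* replicate 2. The change after injury was 3.44 ± 0.60 on the log2 scale (SE, edgeR adjusted p = 0.000968).

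*Fosl1* (FRA-1, chromosome 19, 5447698-5455938), which lacks the strong activation domain of FOS and is typical of migrating and wound-edge cells, was the member of lowest expression. It had 4, 1 and 0 counts in the Sham libraries, 1, 26 and 40 counts in injured *VEGFR3fl/fl* and 83, 69 and 78 counts in injured *VEGFR3iLECko*, or 0.22, 0.06 and 0 CPM, 0.06, 1.52 and 2.30 CPM, and 4.85, 3.91 and 4.49 CPM. Injured *VEGFR3fl/fl* replicate 1 was as low as the Sham libraries, so these groups overlapped, whereas all injured *VEGFR3iLECko* libraries were above all others. The change after injury, 3.70 ± 1.10 on the log2 scale (SE, edgeR adjusted p = 0.0162), rested on few counts and lost its call without Sham replicate 2 (adjusted p = 0.0556), Sham replicate 3 (0.0543) or injured *VEGFR3fl/fl* replicate 3 (0.0547), with adjusted p between 0.000391 and 0.0556 over 19 alternatives. In a fit of the 6 libraries compared it did not pass the filter on low counts.

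*Fosl2* (FRA-2, chromosome 5, 32136472-32157840), the other late-acting member, formed steps over the 3 groups. It was at 32.0, 27.7 and 42.0 CPM in Sham, at 60.4, 109 and 94.9 CPM in injured *VEGFR3fl/fl* and at 186, 193 and 163 CPM in injured *VEGFR3iLECko* libraries. No library of one group overlapped with another group. The change after injury was 1.38 ± 0.22 on the log2 scale (SE, edgeR adjusted p = 0.000546).

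Of the JUN family, *Junb* (chromosome 8, 84976909-84978748), a weaker activator than JUN that can oppose it, was at 94.5, 84.6 and 181 CPM in Sham, at 364, 316 and 461 CPM in injured *VEGFR3fl/fl* and at 605, 578 and 437 CPM in injured *VEGFR3iLECko* libraries. Sham replicate 3 was the highest of its group and remained below all injured libraries. The change after injury was 1.66 ± 0.29 on the log2 scale (SE, edgeR adjusted p = 0.000878).

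*Jun* (chromosome 4, 95049036-95052222), the classical partner of FOS, was at 106, 105 and 133 CPM in Sham, at 103, 156 and 123 CPM in injured *VEGFR3fl/fl* and at 169, 153 and 155 CPM in injured *VEGFR3iLECko* libraries. The Sham and injured *VEGFR3fl/fl* groups overlapped, and the difference was 0.15 on the log2 scale (95% interval -0.19 to 0.49, edgeR adjusted p = 0.403). Its sign turned to -0.011 under scaling by library size only and to -0.015 without injured *VEGFR3fl/fl* replicate 2.

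*Jund* (chromosome 8, 70697739-70700616), which is expressed in resting cells and changes little on stimulation, was at 273, 321 and 308 CPM in Sham, at 282, 273 and 227 CPM in injured *VEGFR3fl/fl* and at 316, 240.2 and 261 CPM in injured *VEGFR3iLECko* libraries. All 3 groups overlapped. The difference after injury was -0.21 on the log2 scale (95% interval -0.49 to 0.08, edgeR adjusted p = 0.186), an interval that leaves out a change of 1.5-fold in either direction.

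*Atf3* (chromosome 1, 191170296-191183333), a stress-induced member of the ATF family that dimerizes with JUN proteins and can repress transcription, was at 10.6, 9.89 and 7.27 CPM in Sham, at 43.9, 40.0 and 29.9 CPM in injured *VEGFR3fl/fl* and at 33.7, 22.8 and 22 CPM in injured *VEGFR3iLECko* libraries. Every injured library was above every Sham library, and in contrast to *Fos*, *Fosl1* and *Fosl2* the 2 highest values were in the injured *VEGFR3fl/fl* group. The change after injury was 2.04 ± 0.22 on the log2 scale (SE, edgeR adjusted p = 5.09e-05), the smallest adjusted p among the 10 members.

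*Egr1*, a zinc finger factor that is induced through the serum response factor together with *Fos*, did not follow *Fos*. It was at 222, 208 and 695 CPM in Sham, at 231, 183 and 191 CPM in injured *VEGFR3fl/fl* and at 389, 281 and 305 CPM in injured *VEGFR3iLECko* libraries. Sham replicate 3 exceeded all other libraries, and the remaining 2 Sham libraries lay within the range of injured *VEGFR3fl/fl*. The difference after injury was -0.89 on the log2 scale (95% interval -1.83 to 0.04, edgeR adjusted p = 0.0902) and -0.09 without Sham replicate 3. Without Sham replicate 1 or Sham replicate 2, where Sham replicate 3 weighs more, it passed the threshold at -1.16 (adjusted p = 0.0443) and -1.18 (adjusted p = 0.0337).

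*Ier2* (chromosome 8, 84661331-84662852), a short immediate early gene of nuclear function, was at 40.8, 47.8 and 47.1 CPM in Sham, at 74, 61.0 and 60.1 CPM in injured *VEGFR3fl/fl* and at 93.8, 67.2 and 73.9 CPM in injured *VEGFR3iLECko* libraries. The Sham group did not overlap with either injured group. The difference after injury was 0.52 ± 0.14 on the log2 scale (SE, edgeR adjusted p = 0.00861), or 1.44-fold, which passed the test and not the threshold on fold.

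**Figure D2:**
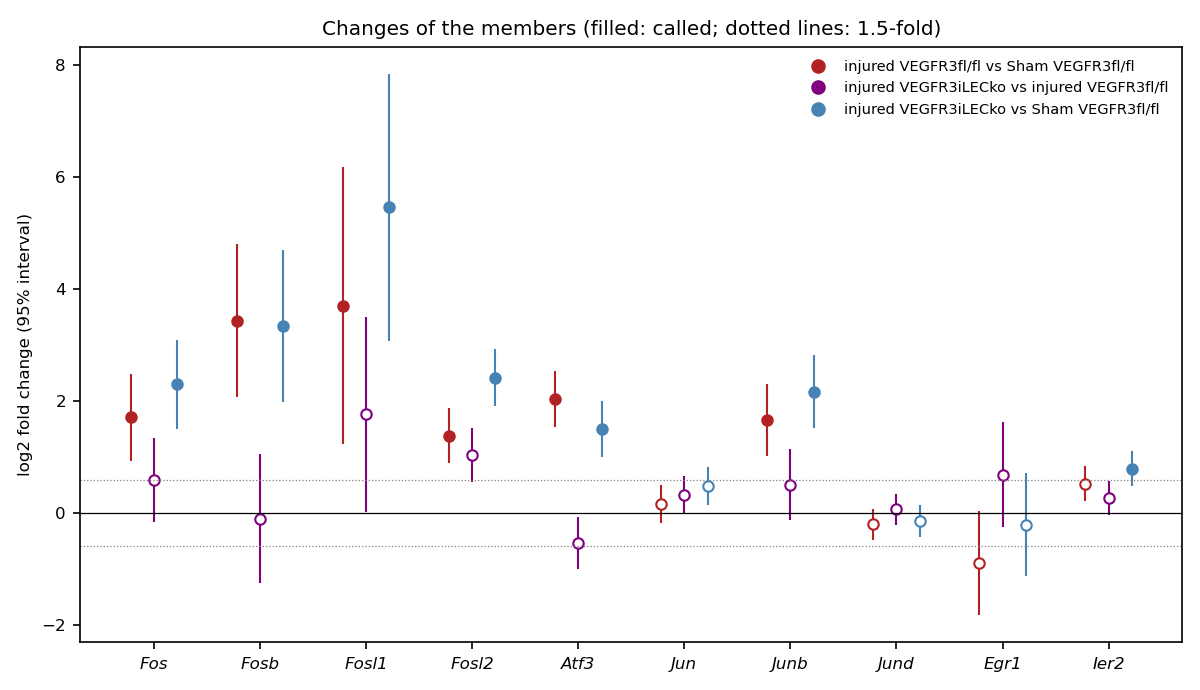
Changes of the 10 members on the log2 scale (vertical axis) in each of 3 comparisons, with 95% intervals from edgeR's quasi-likelihood fit of 9 libraries; filled points were DEGs and dotted lines mark 1.5-fold. The injured *VEGFR3fl/fl* versus Sham comparison held 6 filled points, the injured *VEGFR3iLECko* versus Sham comparison 7, and the comparison between the 2 injured groups 0.

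To compare levels between genes, counts were divided by the length of the longest GENCODE M21 transcript (approximate TPM). These values were scaled to the total of each library, without the normalization factors used for CPM. By this length, in Sham irises *Jund* led with 515 ± 24.8 TPM (SD, n = 3), and *Egr1* (240.0 ± 179 TPM) and *Junb* (191 ± 85.9 TPM) followed without differing beyond their spread. *Jun* (103 ± 15.3 TPM) and *Ier2* (84.9 ± 4.94 TPM) came next, then *Fos* (36.9 ± 14.0 TPM), *Fosl2* (14.9 ± 3.45 TPM), *Atf3* (13.3 ± 2.65 TPM), *Fosb* (1.67 ± 0.81 TPM) and *Fosl1* (0.16 ± 0.20 TPM). The ranges of *Fosl2* and *Atf3* overlapped. In injured *VEGFR3fl/fl* irises *Junb* (492 ± 114 TPM) stood above *Jund* (363 ± 32.1 TPM) in each library, the reverse of the Sham order. By TPM, *Jund* did not overlap between Sham and injured *VEGFR3fl/fl* libraries, whereas by CPM it did. *Egr1* (104 ± 5.10 TPM), *Fos* (99.1 ± 50.9 TPM), *Ier2* (99.0 ± 3.65 TPM) and *Jun* (93.8 ± 25.1 TPM) formed a group whose ranges overlapped. Below them, *Atf3* (44.2 ± 6.48 TPM) and *Fosl2* (31.9 ± 10.9 TPM) overlapped, followed by *Fosb* (14.9 ± 12.6 TPM), which overlapped with *Fosl2*, and *Fosl1* (1.68 ± 1.49 TPM). In injured *VEGFR3iLECko* irises the order of means began with *Junb* (771 ± 127 TPM) and *Jund* (421 ± 47.5 TPM). It went on with *Egr1* (187 ± 26.5 TPM) and *Fos* (164 ± 34.9 TPM), whose ranges overlapped. Then came *Ier2* (133 ± 19.2 TPM), which overlapped with *Fos*, and *Jun* (129 ± 3.54 TPM), which overlapped with *Ier2*. *Fosl2* followed at 71.6 ± 7.16 TPM, above *Atf3* (34.0 ± 7.48 TPM) in every library of this group, then *Fosb* (15.2 ± 4.05 TPM) and *Fosl1* (6.11 ± 0.45 TPM).

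Parts of this order depended on the transcript length used. With the median transcript length, a setting chosen after seeing the data, *Fos* was at 39.8 ± 14.8 TPM in Sham, above *Ier2* (35.5 ± 2.27 TPM) in mean with overlapping ranges, and *Fosl2* (11.7 ± 2.63 TPM) lay above *Atf3* (5.80 ± 1.14 TPM) with no overlap. In injured *VEGFR3fl/fl* irises *Fos* then stood at 113 ± 56.2 TPM, above *Egr1* (55.1 ± 3.85 TPM), *Ier2* (43.8 ± 2.69 TPM) and *Jun* (41.4 ± 10.4 TPM) with no overlap. *Jund* led in Sham (215 ± 12.2 TPM) and *Junb* in injured *VEGFR3fl/fl* (341 ± 74.4 TPM) and injured *VEGFR3iLECko* irises (517 ± 85.0 TPM) in mean by either length.

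The make-up of JUN family mRNA differed between Sham and injured libraries. *Junb* made up between 17.2% and 30.7% of JUN family mRNA per length in the Sham libraries, between 45.1% and 59.3% in injured *VEGFR3fl/fl* and between 54.1% and 62.4% in injured *VEGFR3iLECko* libraries. *Jund* went from 64.3% ± 7.20 (SD, n = 3) in Sham to 38.6% ± 6.02 and 32.0% ± 3.51 in the injured groups. Neither share overlapped between Sham and injured libraries, and the 2 injured groups overlapped in both. With the median transcript length in place of the longest, a setting chosen after seeing the data, *Junb* shares were 31.7%, 62.4% and 68.6% in the order of the groups. In the FOS family, *Fos* was at 67.9% ± 4.26, 66.1% ± 12.9 and 63.5% ± 3.58 of family mRNA in the same order. *Fosb* made up 3.41% ± 1.80 in Sham, 10.9% ± 8.20 in injured *VEGFR3fl/fl*, where the libraries held 9.92%, 19.5% and 3.18%, and 5.97% ± 1.57 in injured *VEGFR3iLECko*. *Fosl1* was at 2.44% ± 0.52 in injured *VEGFR3iLECko* against at most 1.49% in any other library. Summed over the family, FOS mRNA was between 36.7 and 70.9 TPM in Sham libraries. It was between 90.0 and 202 TPM in injured *VEGFR3fl/fl* and between 225 and 305 TPM in injured *VEGFR3iLECko* libraries, with no overlap between groups. *Fos*, the largest part of the sum, overlapped between the injured groups. By CPM, 66.3% and 66.5% of all genes did not overlap between Sham and injured *VEGFR3fl/fl* or injured *VEGFR3iLECko* libraries. Between the injured groups 26.7% did not.

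**Figure D3:**
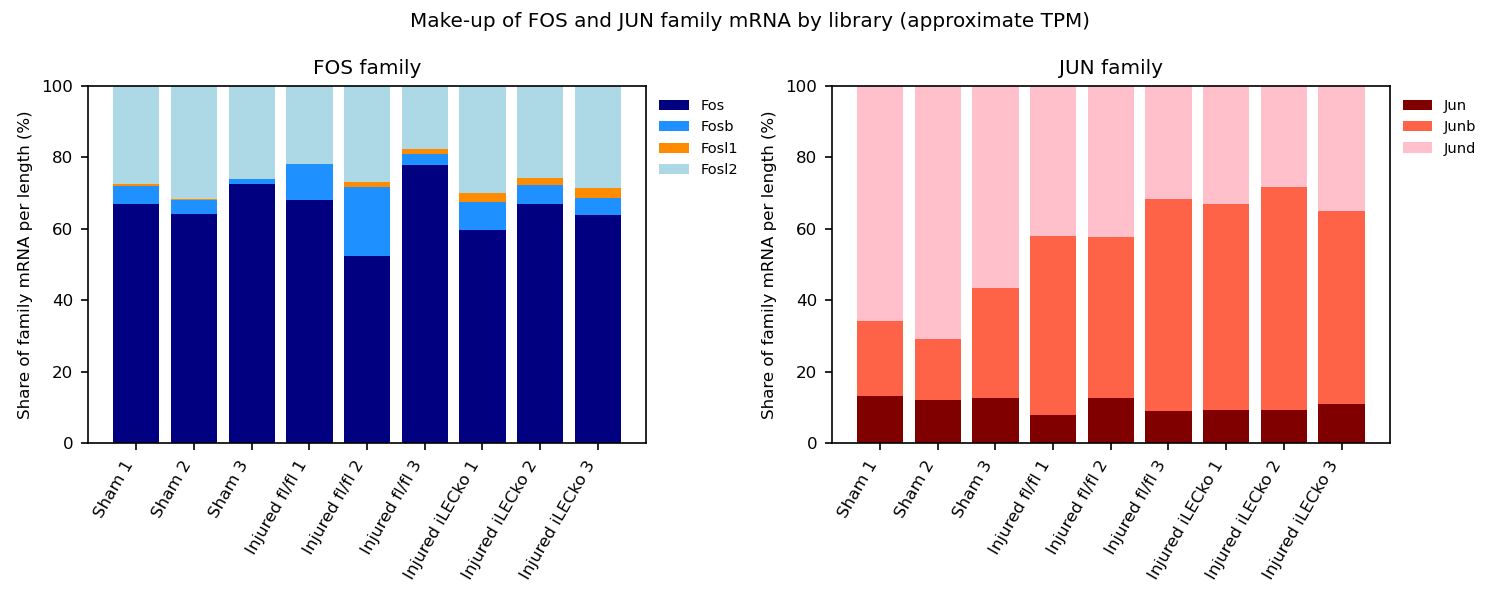
Share of each gene in FOS family mRNA (left) and JUN family mRNA (right), in percent of approximate TPM, with 1 stacked bar for each of 9 libraries. *Junb* made up at most 30.7% of JUN family mRNA in Sham libraries and at least 45.1% in injured libraries.

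The second comparison asked whether the members differed between injured irises with the Cre allele and injured irises without it. No member was a DEG in injured *VEGFR3iLECko* versus injured *VEGFR3fl/fl* irises by edgeR's quasi-likelihood test (0 upregulated and 0 downregulated of 10), where 0.573% of all genes were upregulated and 0.466% downregulated. An unadjusted p under 0.05 was found for 3 members, *Fosl1*, *Fosl2* and *Atf3*, and for 3674 of the 15010 genes. The groups did not overlap in 3 members, *Fosl1*, *Fosl2* and *Egr1*, all higher in injured *VEGFR3iLECko*, and in 26.7% of all genes. The median difference was 0.41 on the log2 scale over the members and -0.01 over all genes.

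*Fosl2* came closest to the threshold, 2.05-fold higher in injured *VEGFR3iLECko* at 181 ± 15.7 CPM against 88.2 ± 25.2 CPM (SD, n = 3 and 3). The difference was 1.04 on the log2 scale (95% interval 0.55 to 1.52, edgeR adjusted p = 0.0523). DESeq2 called it (adjusted p = 0.000234), as did edgeR without injured *VEGFR3fl/fl* replicate 2 (adjusted p = 0.0407) and with a TPM filter based on median transcript lengths, added after seeing the data (adjusted p = 0.0498), and over all alternatives the adjusted p reached 0.425, with Y-linked expression as a covariate. *Fosl1* differed by 1.76 on the log2 scale (95% interval 0.01 to 3.51, adjusted p = 0.202) and by 1.21 without injured *VEGFR3fl/fl* replicate 1, its lowest library. *Atf3* went the other way at -0.53 (95% interval -1.01 to -0.06, edgeR adjusted p = 0.167), 26.2 ± 6.54 CPM against 37.9 ± 7.24 CPM (SD, n = 3 and 3).

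The remaining members had intervals that included 0. *Fos* differed by 0.59 on the log2 scale (95% interval -0.16 to 1.34), *Junb* by 0.50 (-0.13 to 1.14), *Egr1* by 0.69 (-0.25 to 1.62), *Jun* by 0.32 (-0.02 to 0.66), *Ier2* by 0.27 (-0.04 to 0.57) and *Fosb* by -0.10 (-1.25 to 1.05). *Jund* differed by 0.06 (-0.22 to 0.35), and the intervals of *Jund* and *Ier2*, alone among the 10 members, lay within a change of 1.5-fold either way. The sign of *Fosb* was not stable, as the difference was 0.79 without injured *VEGFR3fl/fl* replicate 2, 0.10 without injured *VEGFR3iLECko* replicate 3, 1.00 with the Y-linked covariate and 0.089 with the replicate block. The sign of *Jund* rested on injured *VEGFR3fl/fl* replicate 3 and injured *VEGFR3iLECko* replicate 1, without which it was -0.026 and -0.057. Macrophage and Y-linked genes moved with this comparison too: 5 of 10 macrophage genes were downregulated and 1 upregulated, and 2 of 3 injured *VEGFR3fl/fl* libraries had Y-linked expression of at least 136 CPM against at most 1.11 CPM in injured *VEGFR3iLECko*. The part of macrophages in these differences was not tested. The covariate bears on Y-linked expression only. In the injured *VEGFR3fl/fl* group only replicate 3 (0.804 CPM) was in the range of injured *VEGFR3iLECko*, so the covariate separates Y-linked expression from genotype poorly.

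The third comparison set injured *VEGFR3iLECko* against Sham *VEGFR3fl/fl* irises. In this comparison, which shares its control libraries with the first, 7 of 10 members were upregulated and 0 downregulated by edgeR's quasi-likelihood test, where 19.7% of all genes were upregulated and 15.0% downregulated. The changes on the log2 scale were 5.46 for *Fosl1* (edgeR adjusted p = 0.00198), 3.34 for *Fosb* (0.00136), 2.42 for *Fosl2* (2.72e-05), 2.30 for *Fos* (0.000515), 2.17 for *Junb* (0.000247), 1.5 for *Atf3* (0.00041) and 0.79 for *Ier2* (0.00104). The groups did not overlap in these 7 and in *Jun*, against 66.5% of all genes. *Jun* differed by 0.47 on the log2 scale (edgeR adjusted p = 0.0242), or 1.39-fold, short of the threshold on fold. *Jund* differed by -0.14 (adjusted p = 0.368) and *Egr1* by -0.21 (adjusted p = 0.695). Without Sham replicate 3 the count rose to 9, since *Jun* (0.59, adjusted p = 0.0166) and *Egr1* (0.60, adjusted p = 0.0168) then passed, so the direction of *Egr1* relative to Sham rested on that library.

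Further genes of the same pathways were taken from lists. Of 36 other immediate early genes tested, 16 were upregulated and 3 downregulated in injured *VEGFR3fl/fl* versus Sham irises, where 22.1% and 17.5% of all genes were. The median change of the list was 0.58 on the log2 scale. *Socs3*, a feedback inhibitor of cytokine signaling, rose by 3.01 on the log2 scale (edgeR adjusted p = 1.80e-06) and *Ccn2*, a matrix-associated growth factor, by 2.82 (edgeR adjusted p = 2.02e-05). *Npas4*, a factor of excited neurons, was downregulated by -1.30 (edgeR adjusted p = 0.0296) and *Id1*, an inhibitor of basic helix-loop-helix factors, by -0.74 (edgeR adjusted p = 0.0435), and without Sham replicate 3 the list held 16 upregulated and 0 downregulated genes. Relative to Sham, injured *VEGFR3iLECko* irises had 22 upregulated and 2 downregulated genes of this list, against 19.7% and 15.0% of all genes.

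Over these 36 genes the median difference between the injured groups was 0.25 on the log2 scale. Of them, against 0.573% of all genes, 3 were upregulated in injured *VEGFR3iLECko*. They were the nuclear receptors *Nr4a2* (1.44, edgeR adjusted p = 0.0278) and *Nr4a1* (1.40, adjusted p = 0.048), and *Ier3* (0.59, adjusted p = 0.0398), a survival factor, which was named after its values were seen. Relative to Sham, *Nr4a2* rose by 3.02 on the log2 scale (edgeR adjusted p = 1.08e-05). The count of 3 was not stable: it was 7 by DESeq2, 1 with the replicate block and without Sham replicate 2, injured *VEGFR3fl/fl* replicate 1, injured *VEGFR3fl/fl* replicate 2 or injured *VEGFR3iLECko* replicate 3, and 0 in a fit of the 6 libraries compared, with the Y-linked covariate, and without Sham replicate 1, Sham replicate 3, injured *VEGFR3iLECko* replicate 1 or injured *VEGFR3iLECko* replicate 2.

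**Figure D4:**
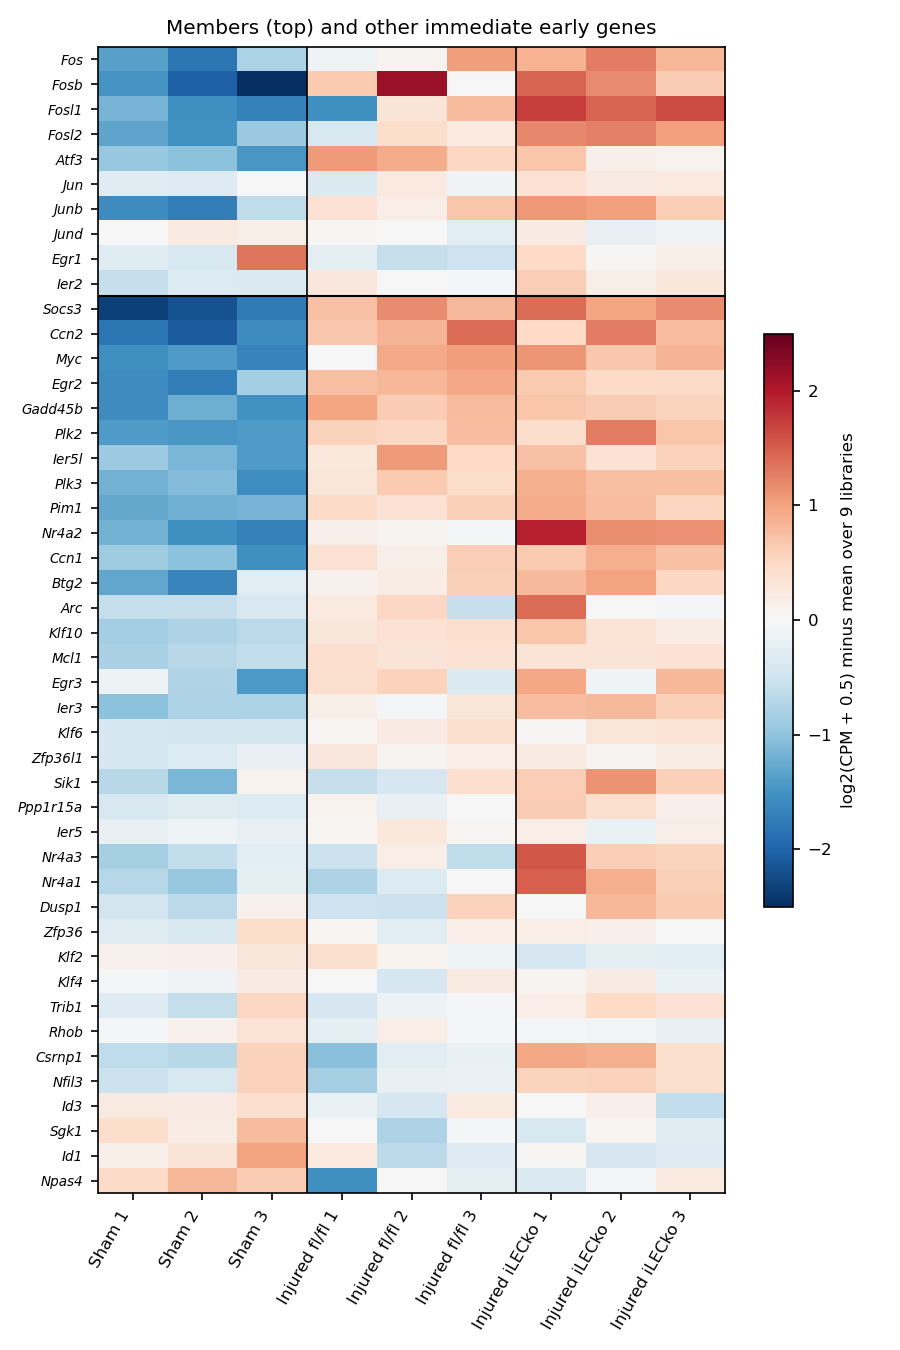
Expression of the 10 members (above the line) and 36 other immediate early genes (below, ordered by their change after injury) in 9 libraries, as log2(CPM + 0.5) minus the mean of each gene over the libraries; the color scale ends at 2.5 in either direction. Most genes were lower in Sham libraries, with *Egr1*, *Jund* and the lowest rows as exceptions, and Sham replicate 3 was the warmest Sham column for *Egr1* and *Btg2*.

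AP-1 also pairs with other basic leucine zipper (bZIP) factors. Of 25 such partners and inhibitors, 12 were upregulated and 0 downregulated after injury, where 22.1% and 17.5% of all genes were. The median change of the list was 0.55 on the log2 scale. *Nfe2*, a factor of the blood lineage, rose by 4.22 (edgeR adjusted p = 0.000431) and *Batf*, a JUN partner of lymphoid and myeloid cells, by 3.10 (edgeR adjusted p = 1.53e-06). Relative to Sham, 11 of the list were upregulated and 1 downregulated in injured *VEGFR3iLECko*, where 19.7% and 15.0% of all genes were. Between the injured groups 0 were DEGs by edgeR or by DESeq2. At an unadjusted edgeR p under 0.05, 2 were higher and 4 lower in injured *VEGFR3iLECko*. Over all genes, 3674 of 15010 were under that p in either direction.

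Upstream of AP-1, 34 genes of the MAP kinase cascade and of the serum response factor complex were tested. After injury 8 were upregulated and 3 downregulated, where 22.1% and 17.5% of all genes were. The upregulated count was thus not apart from the background, and the median change of the list was 0.06 on the log2 scale. *Mapk11* (p38 beta) rose by 2.34 (edgeR adjusted p = 6.64e-07) and *Elk3*, a partner of the serum response factor, by 1.33 (edgeR adjusted p = 1.33e-06). *Map2k6*, a kinase that activates p38, fell by 1.14 on the log2 scale (edgeR adjusted p = 0.000749) and *Map3k5* by 0.88 (edgeR adjusted p = 0.000135). Of 11 dual-specificity phosphatases, which switch MAP kinases off, 4 were upregulated and 2 downregulated, against the same shares of all genes. Among them were *Dusp9* (2.73, edgeR adjusted p = 0.00224), *Dusp2* (2.09, adjusted p = 0.000122), *Dusp4* (-0.82, adjusted p = 0.0356) and *Dusp10* (-0.61, adjusted p = 0.00774). In injured *VEGFR3iLECko* versus Sham irises the counts were 6 upregulated and 2 downregulated for the cascade and 5 and 0 for the phosphatases. Of all genes, 19.7% were upregulated and 15.0% downregulated there. Between the injured groups edgeR called 0 genes of either list, and DESeq2 called 1 gene of the cascade upregulated, against 344 of all 15010 genes. At an unadjusted edgeR p under 0.05, 8 cascade genes were higher and 3 lower, and 3 phosphatases higher, in injured *VEGFR3iLECko*. Over all genes, 3674 of 15010 were under that p in either direction.

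Downstream, 18 of 22 genes known for AP-1 sites were upregulated and 3 downregulated after injury, where 22.1% and 17.5% of all genes were. The median change of the list was 2.79 on the log2 scale. The collagenase *Mmp13* rose by 8.92 (edgeR adjusted p = 4.85e-05) and the gelatinase *Mmp9* by 8.24 (edgeR adjusted p = 0.000386), whereas the metallothionein *Mt1* fell by 1.07 (edgeR adjusted p = 0.000148) and the vascular growth factor *Vegfa* by 1.01 (edgeR adjusted p = 0.00172). Relative to Sham, 19 of the list were upregulated and 2 downregulated in injured *VEGFR3iLECko*, against 19.7% and 15.0% of all genes. Between the injured groups *Il6* was upregulated in injured *VEGFR3iLECko* by 2.62 (edgeR adjusted p = 0.0263). The number of genes of this list called upregulated there was between 0 and 5 over the alternatives, 5 by DESeq2, 0 in the fit of the 6 libraries compared, with the replicate block or the Y-linked covariate and without Sham replicate 1, Sham replicate 3 or any injured *VEGFR3iLECko* library, and 1 without injured *VEGFR3fl/fl* replicate 1. Of 10 EGR1-related genes, 6 were upregulated and 1 downregulated after injury, against 22.1% and 17.5% of all genes, while *Egr1* itself was not a DEG. *Thbs1*, which encodes thrombospondin, rose by 4.42 (edgeR adjusted p = 1.90e-06), *Tnf* by 3.11 (edgeR adjusted p = 0.000809), and *Pdgfa* fell by 1.45 (edgeR adjusted p = 3.20e-05). In injured *VEGFR3iLECko* versus Sham irises 5 of the 10 EGR1-related genes were upregulated and 1 downregulated, against 19.7% and 15.0% of all genes. Between the injured groups 0 were DEGs by edgeR or DESeq2. At an unadjusted edgeR p under 0.05, 1 was higher, against 3674 of the 15010 genes in either direction. Many of these targets are also genes of macrophages and fibroblasts, whose marker lists rose with injury, and the part of cell composition was not tested.

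Since irises were dissected before lysis, genes of heat shock and handling were set beside the members. Of 16 such genes, 1 was upregulated and 3 were downregulated after injury, where 22.1% and 17.5% of all genes were, with a median change of 0.09 on the log2 scale, and their summed expression was between 4480 and 4930 CPM in Sham, between 4680 and 5510 CPM in injured *VEGFR3fl/fl* and between 4590 and 5470 CPM in injured *VEGFR3iLECko* libraries. The most abundant, the constitutive chaperone *Hspa8*, was upregulated by 0.62 (edgeR adjusted p = 0.00106), *Hsp90ab1* differed by 0.13 (adjusted p = 0.231) and *Hspa5* by 0.54 (adjusted p = 0.0351). The inducible *Hspa1a* fell by 1.19 (edgeR adjusted p = 0.0024) and *Cryab* by 1.30 (edgeR adjusted p = 0.000118). Heat shock genes were 0 upregulated and 0 downregulated between the injured groups by edgeR and DESeq2. At an unadjusted edgeR p under 0.05 their number was 0, against 3674 of the 15010 genes. In injured *VEGFR3iLECko* versus Sham irises 0 heat shock genes were upregulated and 3 downregulated, where 19.7% and 15.0% of all genes were. Neither the time from death to lysis nor the order of dissection is given in the sources used here, so the part of handling in the members was not tested.

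Within the Sham group replicate 3 stood apart for a number of these genes. Its CPM over the mean of the other 2 Sham libraries was 3.23 for *Egr1*, 2.02 for *Junb* and 1.73 for *Fos*, and above 1.5 for 10 of 36 other immediate early genes (27.8%), such as *Csrnp1* (2.42) and *Btg2* (2.29), named after their values were seen, against 2.49% of all genes tested. It was above 1.5 for 0 of 16 heat shock genes. The same library also held the most red blood cell RNA of its group, at 1200 CPM against 545 and 658 CPM, and the highest Y-linked expression, at 167 CPM against 51.1 and 82.3 CPM, and their part in the pattern was not tested. *Fosb* and *Atf3* did not share this pattern, as replicate 3 held their lowest Sham values. In the injured *VEGFR3fl/fl* group, replicate 2 was 3.55 times the mean of the others for *Fosb* and replicate 3 was 2.09 times for *Fos*, and no library was the highest throughout. In the injured *VEGFR3iLECko* group, replicate 1 was the highest for 8 of 10 members, though by at most 1.79 times its lowest library. Without Sham replicate 3, 5 members were upregulated in injured *VEGFR3fl/fl* versus Sham irises, the lost one being *Fosl1*.

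**Figure D5:**
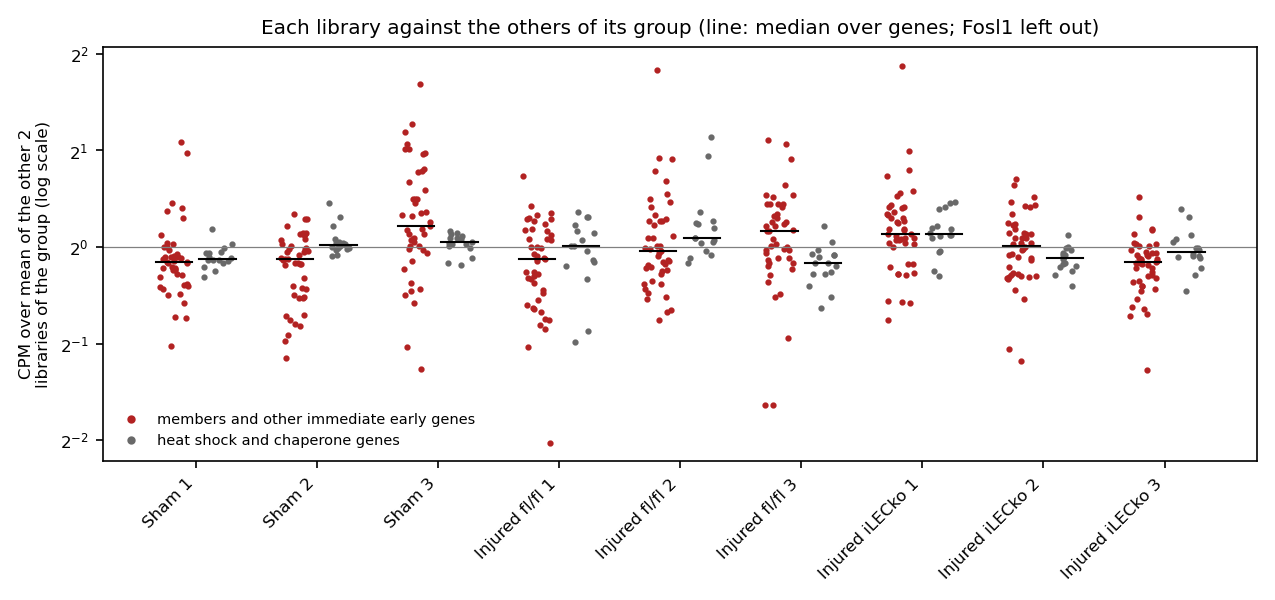
CPM of each gene in a library over its mean in the other 2 libraries of the same group (vertical axis, log scale), for members and other immediate early genes (red) and heat shock genes (grey), with black lines at the median over genes and *Fosl1*, which has counts of 0 and 1, left out. Sham replicate 3 held the widest upward spread of the red points among Sham libraries, up to 3.23 for *Egr1*, while its grey points stayed below 1.5.

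Over the 9 libraries the genes nearest to 4 members were found by the root mean square difference of centred log2 CPM. For *Fos* they were *Junb* (0.256), *Rgs2* (0.268) and *Btg2* (0.285), and *Rgs2* was at 17.4 to 22.7 CPM in Sham and at 54.0 to 143 CPM in injured libraries. For *Fosl1* they were *Plekhg4* (0.767), *Adamts12* (0.818) and *Atp12a* (0.818), all lower in injured *VEGFR3fl/fl* replicate 1 than in the other 5 injured libraries, with *Adamts12* at 2.82 to 3.49 CPM in Sham, at 6.31 CPM in that library and at 43.7 and 58.2 CPM in replicates 2 and 3. For *Jund*, which hardly varied, they were *Timm10* (0.067), *Cd320* (0.07) and *Mrpl38* (0.07). For *Egr1* they were *Epn3* (0.33), *Corin* (0.335) and *Gm42031* (0.336), which like *Egr1* were highest in Sham replicate 3. These distances describe 9 libraries that share groups and pools and were not tested.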

How the data were processed

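Iris RNA of 9 libraries, 3 for each of 3 groups, was analysed. The authors sequenced single-end reads of 50 bases, aligned them with HISAT2 2.0.4 and Bowtie2 2.2.5 to mm10 and deposited estimated counts per gene without normalization, and between 9.83% and 10.3% of the values of a library were not whole. The program that estimated the counts is not given in the sources used here. How reads shared by related genes or overlapping transcripts were assigned is likewise not given. A combined table with group averages was not used.

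Groups were taken from the titles, and the genotype tags of 2 injured *VEGFR3iLECko* libraries, which name another VEGFR number, were not followed. The members and lists were chosen with earlier results of these data known. Estimated counts were rounded, filtered with filterByExpr (15010 of 18349 genes), normalized by TMM (factors 0.90 to 1.09) and entered in 1 model of all libraries with no covariate beside the group in edgeR 4.0.16 (R 4.3.3, limma 3.58.1). The quasi-likelihood test was used with Benjamini-Hochberg adjustment, and DEGs had an adjusted p under 0.05 and more than 1.5-fold change. Standard errors and 95% intervals of log2 fold changes came from the F statistic. The study's filter, TPM of at least 2 in any group, could only be approximated and was an alternative. Approximate TPM used the longest GENCODE M21 transcript, at hand for 97.7% of genes. Members were described in every library. From each other list, up to 2 DEGs per direction and comparison with the largest changes were named, for the heat shock list also the 3 most abundant genes, and for *Fos*, *Fosl1*, *Jund* and *Egr1* the 3 nearest genes.

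Alternatives covered normalization, filters, DESeq2 1.42.0, the libraries in the fit, a replicate block, a Y-linked covariate, the fold threshold and leaving out each library. Unrounded counts and median transcript lengths were added after the data were seen. Libraries held 16617187 to 18306359 counts, so that 1 count was worth 0.0554 to 0.0607 CPM. Replicates differed by more than counting noise (chi-square per degree of freedom 5.12 to 77.6). The fit was tested on simulated data. Promoter windows came from RefSeq (GRCm38.p6). Mitochondrially encoded mRNAs were not analysed here. Results on some further genes are not reported here.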

Additional observations from a re-analysis of the deposited data

How the results depend on the processing

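Of 599 recomputed member values, from 20 alternatives for each difference (19 for *Fosl1* after injury), 577 kept their direction and their side of the threshold. Upregulated members in injured *VEGFR3fl/fl* versus Sham numbered between 5 and 6 when each library was left out, and those in injured *VEGFR3iLECko* versus Sham between 7 and 9. Downregulated members in injured *VEGFR3fl/fl* versus Sham numbered 1 (*Egr1*) under library size only, which shifted the median of all genes to -0.16 on the log2 scale, and 0 to 1 when each library was left out. Upregulated members between the injured groups numbered 1 (*Fosl2*) by DESeq2 and with the TPM filter by median length, and 0 to 1 when each library was left out.

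Log2 differences that changed sign were those of *Jun* after injury (-0.011 under library size only and -0.015 without injured *VEGFR3fl/fl* replicate 2, with -0.015 to 0.29 over the libraries left out), of *Fosb* between the injured groups (1.00 with the Y-linked covariate, 0.79 without injured *VEGFR3fl/fl* replicate 2 and 0.10 without injured *VEGFR3iLECko* replicate 3, with -0.47 to 0.79 over the libraries left out), of *Jund* between the injured groups (-0.026 without injured *VEGFR3fl/fl* replicate 3 and -0.057 without injured *VEGFR3iLECko* replicate 1, with -0.057 to 0.15 over the libraries left out), and of *Jund* (0.14 with the covariate) and *Egr1* (0.25 with the covariate and 0.60 without Sham replicate 3, with -0.50 to 0.60 over the libraries left out) in injured *VEGFR3iLECko* versus Sham. The Y-linked covariate also ended the call of *Fosl1* in that comparison (4.01, edgeR adjusted p = 0.0655). The causes were not tested.

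Same-numbered libraries correlated at -0.39 to 0.12 in their deviations from the group means. The paper mentions 3 sequencing experiments, and with 3 libraries per group these values cannot decide whether a replicate number marks a shared run. With the replicate block the members upregulated were 6, 0 and 7 in the 3 comparisons, and *Fosb* between the injured groups was 0.089. Over all genes, DEGs between the injured groups were 86 upregulated and 70 downregulated in the fit reported, 11 and 13 with the replicate block, 344 and 282 by DESeq2, 0 and 2 with the covariate, and 0 and 0 in the fit of the 6 libraries compared. Under library size only, 2783 genes were upregulated and 3523 downregulated after injury, against 3323 and 2630. Depth limits *Fosl1*, with at most 4 counts in any Sham library.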
